A study of Mus musculus with 24 samples.

Results

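The circadian clock genes examined here are Clock, Arntl, Per1, Per2, Per3, Cry1, Cry2, Nr1d1, Dbp and Tef, taken as every array probe that carries one of these 10 gene names. There were 19 such probes among 41174, and all 19 were among the 35477 probes bright enough to be tested. Clock had 4 probes, Tef had 3, Per2, Cry1, Cry2 and Nr1d1 had 2 each, and Per1, Per3, Arntl and Dbp had 1 each. Probes of a gene are numbered from the brightest, so that Clock probe 1 is the brightest for Clock. They share their target and are not replicates of each other.

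The tissue was the urogenital sinus (UGS), the embryonic tube of epithelium and mesenchyme that forms the prostate in males. Pregnant C57/Bl6J mice received 50 mg/kg of dihydrotestosterone (DHT), a potent androgen, or vehicle at 16 days post conception (dpc), and the sinus was dissected from their female embryos after 6 or 12 h. The labels count as 48 h a set of unmanipulated males and their female littermates at 17.5 dpc, which were not dosed. RNA was pooled from several embryos and each pool was hybridised directly against its partner on 2 arrays with exchanged dyes. This gave 4 pairs of pools at 6 h, 3 at 12 h and 5 of males against females. A log2 ratio here is DHT over vehicle or male over female, averaged over the 2 arrays of a pair. Nothing in the labels says whether pools came from separate litters, so p-values measure the spread between these pools. That spread was estimated for each probe over all 12 pairs. Pairs of the other comparisons therefore enter each p-value and standard error (SE), whatever the n given beside it.

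In the mammalian clock, the proteins CLOCK and ARNTL (also called BMAL1) pair up and switch on genes that carry an E-box. The period (Per) and cryptochrome (Cry) genes are among those targets, and their proteins return to block CLOCK and ARNTL, which closes a daily loop. A second loop runs through Nr1d1 (REV-ERB alpha), which represses Arntl. Dbp and Tef encode D-box binding factors that carry the rhythm to further genes. Peripheral tissues hold such clocks too, and glucocorticoids, a class of steroid hormone, are known to induce Per1. Rhythms in the embryo are in general weak. The time of day of dissection is not in the labels used here.

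Before correction, the median spot of an array had a Cy3 signal of 102.3 to 151.1 and a Cy5 signal of 98.1 to 146.2. The array with exchanged dyes of male-female pair 1 had 1624 probes without a value, against at most 217 on any other array. The correlation over all probes (not independent of each other) between both arrays of a pair was 0.35 to 0.74 for males against females, −0.22 to 0.09 at 12 h and −0.51 to −0.08 at 6 h. Among the clock gene probes, both arrays of a pair gave the same sign in 58 of 94 cases for males against females, 23 of 57 at 12 h and 25 of 76 at 6 h. Where signs differ, the effect of the dyes exceeded the difference between the pools, which was so in most cases at 6 and 12 h, and each ratio rests on the exchange. The labels of the 6 h vehicle pools need a caution. Eif2s3y, a Y-linked gene, read 8.65, 7.64 and 7.80 (log2 level) in the vehicle pools of 6 h pairs 2, 3 and 4, against 6.02 in pair 1, 5.99 to 6.37 in the female pools and 8.51 to 9.01 in the male pools at 17.5 dpc. The vehicle pools of those pairs, labelled female, thus carried Y-linked RNA. Results at 6 h are therefore given with pair 1 alone where they bear on a statement. In the vehicle pool of pair 1, Y-linked Ddx3y (5.98) and Kdm5d (6.23) were not above the female pools at 17.5 dpc. Uty, also Y-linked, was above them, at 6.20 against 5.89 to 6.05. Hoxd13, a gene of the caudal body region, was well above background on every array.

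Of the 19 clock gene probes, 1 passed the test in 1 of the 3 comparisons, a Per2 probe that was lower in males than in females. At 6 h no probe passed the test (limma, Benjamini-Hochberg adjusted p under 0.05), against 1.73% of all tested probes, and 2 of 19 had an unadjusted p under 0.05, against 13.7% of all. At 12 h no probe passed either, against 0.276% of all probes, and 6 had an unadjusted p under 0.05, against 15% of all. Between males and females 1 of 19 probes passed, against 6.24% of all probes, and 5 had an unadjusted p under 0.05, against 16.6% of all. The test of the 12 h ratio less the 6 h ratio called no member and 0.257% of all probes. The means over pairs lay between −0.08 and 0.15 at 6 h (median 0.02, against 0.005 over all probes), between −0.14 and 0.19 at 12 h (median 0.04, against 0.0007) and between −0.16 and 0.10 for males over females (median −0.02, against 0.0003). No 95% interval of any member reached beyond −0.21 or 0.23 at 6 h, −0.23 or 0.32 at 12 h, or −0.29 or 0.20 between the sexes, so the widest bound was a 1.25-fold change on this scale. The scale pulls the ratios of dim probes towards 0, because 50 units were added to each signal after background correction. With 1 unit added in its place, a setting chosen after the data were seen, the means ran from −0.16 to 0.20 at 6 h, −0.38 to 0.33 at 12 h and −0.31 to 0.28 between the sexes, and 0, 0 and 1 probes passed.

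**Figure D1:**
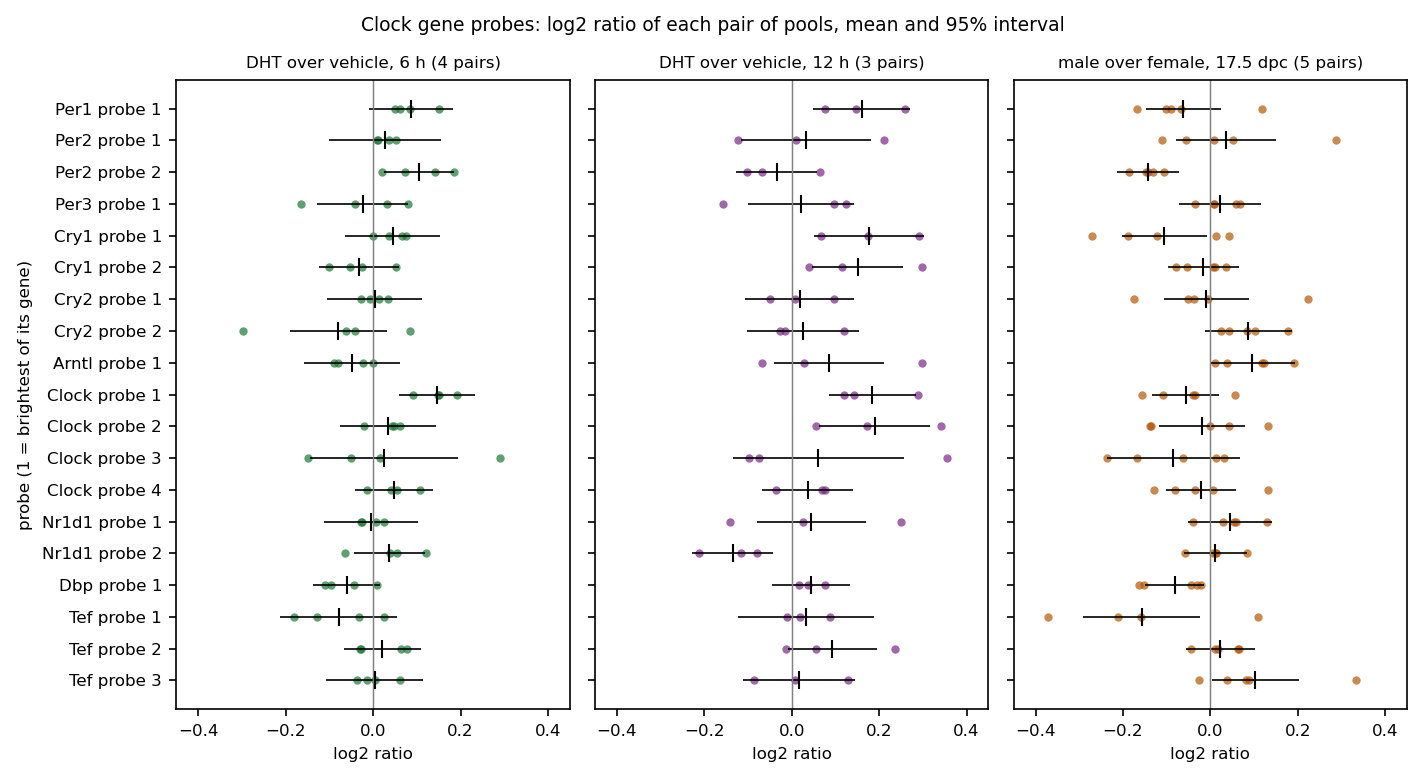
Log2 ratio of each pair of pools (points) for the 19 clock gene probes, with the mean (tick) and its 95% interval from the fit (line), in the 4 pairs at 6 h, the 3 at 12 h and the 5 of males over females. Most means lie within 0.1 of 0. Clock probe 1, Per1 and Cry1 probe 1 lie above 0 in all 7 DHT pairs, the last by only 0.0008 in 6 h pair 2. Per2 probe 2 lies below 0 in all 5 male-female pairs.

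Clock encodes one of the paired activators. Clock probe 1 (A_52_P334670) had log2 ratios of 0.15, 0.15, 0.19 and 0.09 in the 4 pairs at 6 h and of 0.29, 0.14 and 0.12 at 12 h. All 7 DHT pools thus read above their vehicle pools, as they did for Per1, for Cry1 probe 1 and for 2.45% of all tested probes. Its mean was 0.15 at 6 h (SE 0.04, n = 4, limma adjusted p = 0.0901) and 0.18 at 12 h (SE 0.05, n = 3, limma adjusted p = 0.0908), and neither passed. In 6 h pair 1 the ratio was 0.15. That pair's vehicle pool read above the female pools of the male-female pairs for Uty, but not for Eif2s3y, Ddx3y or Kdm5d. In the male-female pairs the same probe had −0.04, −0.11, 0.06, −0.16 and −0.04, a mean of −0.06 (SE 0.04, limma adjusted p = 0.516).

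The male-female ratio of Clock probe 1 was below its 6 h ratio by a difference of −0.20 (SE 0.05, limma adjusted p = 0.0434), 1 of 2 member probes to pass in that contrast, against 5.77% of all probes. That call was lost when any 1 of the 4 pairs at 6 h was left out (adjusted p of 0.116, 0.112, 0.115 and 0.0567 without pairs 1, 2, 3 and 4) and without male-female pair 1, 2, 4 or 5 (0.0563, 0.0943, 0.105 and 0.067). It was also lost with the replicate number as a block (adjusted p = 0.0689). With 6 h pair 1 alone the difference was −0.21 with an adjusted p of 0.443. Against 12 h the difference was −0.24 (SE 0.06, limma adjusted p = 0.0668), and without male-female pair 3 it was −0.27 and passed (adjusted p = 0.0412).

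The other Clock probes followed probe 1 only in part. Clock probe 2 had 0.17, 0.34 and 0.05 at 12 h, a mean of 0.19 (SE 0.06, limma adjusted p = 0.145), and 0.04, 0.06, −0.02 and 0.05 at 6 h. Clock probe 3, whose accession in the file is that of a different cDNA, had 0.36, −0.08 and −0.10 at 12 h, so its mean of 0.06 rests on pair 1. Clock probe 4 stayed between −0.04 and 0.11 in the 7 DHT pairs and was well above background on only 5 of 10 arrays for female pools and 4 of 10 for male pools.

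Arntl encodes the partner of CLOCK. Its single probe had −0.02, −0.08, −0.001 and −0.09 at 6 h, and 0.03, −0.07 and 0.30 at 12 h. The 6 h values were all at or below 0 and the 12 h values were spread over both signs, and neither mean passed (−0.05 and 0.09, limma adjusted p = 0.821 and 0.545). In the male-female pairs it had 0.01, 0.12, 0.04, 0.19 and 0.12, all above 0, with a mean of 0.10 (SE 0.05, limma adjusted p = 0.314). Across all tested probes 7.39% were above 0 in all 5 of those pairs.

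The period and cryptochrome genes are the repressors of the loop. Their upstream sequence is shown for Per1, Cry1 and Per3, with matches to 2 clock motifs in capitals. Among the period and cryptochrome genes, the levels of Per1 and Cry1 differed most between the sets of pools, and those of Per3 at 6 and 12 h overlapped. Only sequences with a match were printed, and any link between matches and levels was not tested. RefSeq promoter windows (build GRCm38.p6) of 300 bases were found for 9 of the 10 genes, 14 windows in all, and the 250 bases before the start of the transcript are printed 5′ to 3′ on the strand of the gene. Capitals mark CACGTG, the E-box, in the first and second sequence, and TTATGTAA, the D-box, in the third. The windows are chr11:69098699-69098948 on the plus strand for Per1, chr10:85185055-85185304 on the minus strand for Cry1, and chr4:151044666-151044915 on the minus strand for Per3.
Per1: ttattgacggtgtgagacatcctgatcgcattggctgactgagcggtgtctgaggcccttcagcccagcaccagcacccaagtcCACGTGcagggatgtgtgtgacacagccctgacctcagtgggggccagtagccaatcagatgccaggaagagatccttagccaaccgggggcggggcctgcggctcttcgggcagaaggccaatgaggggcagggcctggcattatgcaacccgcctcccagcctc
Cry1: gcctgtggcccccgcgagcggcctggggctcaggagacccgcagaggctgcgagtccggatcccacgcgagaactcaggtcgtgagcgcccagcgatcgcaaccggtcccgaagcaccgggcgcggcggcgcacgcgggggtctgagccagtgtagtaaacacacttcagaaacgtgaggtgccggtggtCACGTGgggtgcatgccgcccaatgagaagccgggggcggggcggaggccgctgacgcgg
Per3: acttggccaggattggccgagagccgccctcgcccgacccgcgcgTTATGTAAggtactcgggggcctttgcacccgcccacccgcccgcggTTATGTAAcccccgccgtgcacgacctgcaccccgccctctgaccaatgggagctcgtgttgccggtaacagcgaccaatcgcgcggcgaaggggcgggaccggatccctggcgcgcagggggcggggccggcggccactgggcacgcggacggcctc
The E-box match began 166 bases before the start in Per1 and 60 bases before it in Cry1, and the 2 D-box matches in Per3 began 205 and 158 bases before it. CACGTG, which reads the same on both strands, was in 4 of the 14 member windows over these 250 bases (Per1, Cry1 and both windows of Tef), and in 6.02% of all 32851 windows. TTATGTAA, on either strand, was in 1 member window (Per3) and in 0.819% of all. TAGGTCA, a form of the element that REV-ERB alpha and ROR factors bind, was in 0 of the 14 member windows and in 2.23% of all. Over the whole 300 bases TAGGTCA was in 1 member window, that of Arntl, where it lies past the start of the transcript, and in 2.61% of all, and the member windows with an E-box or a D-box were the same 4 and 1. These are matches of letters, and a window without a match says nothing about the factor.

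Per1 is the period gene most often described as steroid-responsive. Its probe (A_52_P79889) had log2 ratios of 0.15, 0.05, 0.08 and 0.06 at 6 h and of 0.15, 0.08 and 0.26 at 12 h. Every DHT pool read above its vehicle pool, at most by 0.26. The means were 0.09 at 6 h (SE 0.04, n = 4, limma adjusted p = 0.435) and 0.16 at 12 h (SE 0.05, n = 3, limma adjusted p = 0.158), and neither passed. In 6 h pair 1 alone the ratio was 0.15. Males were below females in 4 of 5 pairs (−0.07, −0.10, −0.17, −0.09 and 0.12, mean −0.06, limma adjusted p = 0.531). The male-female ratio less the 12 h ratio was −0.22 (SE 0.07, limma adjusted p = 0.121), a contrast in which 1.31% of all probes and no member passed. Without male-female pair 5, the 1 pair with a positive ratio, the difference was −0.27 and passed (adjusted p = 0.0434).

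Per2 was the only one of the 10 genes with a probe that passed between the sexes, and its 2 probes gave means of opposite sign. Per2 probe 2 (A_51_P282760) had −0.19, −0.14, −0.15, −0.13 and −0.11, so every male pool was below its female littermates. The mean was −0.14 (SE 0.03, n = 5, limma adjusted p = 0.0192). Per2 probe 1 (A_52_P536869), the brighter of both, had 0.29, 0.05, −0.05, 0.01 and −0.11 in the same pairs, a mean of 0.04 (SE 0.05, limma adjusted p = 0.857). Both probes carry the same RefSeq accession in the file. Leaving out 1 male-female pair moved the adjusted p of Per2 probe 2 to 0.0629, 0.058, 0.0519 and 0.0637 (without pairs 1, 2, 3 and 4) and to 0.0346 (without pair 5). With the replicate number as a block it was 0.054, and the call was lost.

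At 6 h Per2 probe 2 had 0.07, 0.18, 0.02 and 0.14, a mean of 0.11 (SE 0.04, limma adjusted p = 0.191), and at 12 h it had −0.07, −0.10 and 0.07. The male-female ratio lay below the 6 h ratio by −0.25 (SE 0.05, limma adjusted p = 0.0104). That difference had the same sign with 6 h pair 1 alone, at −0.21, with an adjusted p of 0.306. Per2 probe 1 stayed between 0.01 and 0.05 at 6 h and took values of 0.21, 0.01 and −0.12 at 12 h.

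Per3 is the third period gene. Its probe had 0.03, −0.17, 0.08 and −0.04 at 6 h, 0.10, −0.16 and 0.12 at 12 h, and values between −0.03 and 0.07 in the male-female pairs. No mean was further from 0 than 0.02. This is a dim probe, with mean levels of 6.26 and 6.23 in vehicle pools at 6 and 12 h, so the added offset limits its ratios. It was well above background on 7 of 8 arrays for DHT pools at 6 h and 5 of 6 for vehicle pools at 12 h.

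Cry1 and Cry2 encode the cryptochromes, the stronger repressors of CLOCK and ARNTL. Both Cry1 probes were above 0 in all 3 pairs at 12 h, probe 1 with 0.17, 0.07 and 0.29 and probe 2 with 0.12, 0.04 and 0.30. Across all probes 16.3% were above 0 in those 3 pairs. The means were 0.18 (SE 0.06, limma adjusted p = 0.168) and 0.15 (SE 0.05, limma adjusted p = 0.16), and neither passed. At 6 h Cry1 probe 1 had 0.04, 0.0008, 0.07 and 0.07 and probe 2 had −0.03, −0.10, −0.05 and 0.05, means of 0.04 and −0.03 with opposite signs. In the male-female pairs Cry1 probe 1 had −0.27, 0.04, 0.01, −0.19 and −0.12 (mean −0.10, limma adjusted p = 0.253). Cry1 probe 1 gave −0.28 for the male-female ratio less the 12 h ratio (SE 0.07, limma adjusted p = 0.0845).

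Cry2 probe 1 stayed between −0.03 and 0.03 at 6 h and between −0.05 and 0.10 at 12 h. In the male-female pairs it had −0.18, −0.01, −0.04, −0.05 and 0.22, opposite signs in pairs 1 and 5. Cry2 probe 2 was above 0 in all 5 male-female pairs (0.18, 0.04, 0.03, 0.10 and 0.08), with a mean of 0.09 (SE 0.05, limma adjusted p = 0.403).

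Nr1d1 encodes REV-ERB alpha, the repressor of Arntl in the second loop. Nr1d1 probe 1 had 0.03, −0.03, 0.01 and −0.02 at 6 h, 0.03, 0.25 and −0.14 at 12 h, and 0.13, 0.03, −0.04, 0.06 and 0.05 in the male-female pairs. The 12 h values covered both signs and no mean exceeded 0.05. Nr1d1 probe 2 was below 0 in the 3 pairs at 12 h (−0.21, −0.08 and −0.12, limma adjusted p = 0.156), as were 19.3% of all probes, but it was well above background on only 5 of 6 arrays for vehicle and 3 of 6 for DHT pools there, and on 0 of 8 for each kind of pool at 6 h.

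Dbp and Tef, with Hlf, form the family of D-box activators that follow the clock. Dbp (A_51_P180492) had −0.10, −0.11, 0.01 and −0.04 at 6 h and 0.04, 0.08 and 0.02 at 12 h. Its male-female ratios were −0.04, −0.15, −0.16, −0.02 and −0.03, below 0 in all 5 pairs, as for 7.2% of all probes. The mean was −0.08 (SE 0.03, n = 5, limma adjusted p = 0.189). When ratios were centred on the median of each array in place of loess, the mean was −0.16 and passed (adjusted p = 0.0332).

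Tef probe 1 had −0.13, −0.03, −0.18 and 0.03 at 6 h and 0.09, 0.02 and −0.01 at 12 h. In male-female pairs 2 to 5 it had −0.16, −0.21, −0.37 and 0.11, and pair 1 had no value because a spot was marked as an outlier. The mean over those 4 pairs was −0.16 (SE 0.06, limma adjusted p = 0.201). Without pair 5, the 1 pair in which the male pool was higher, it was −0.25 (adjusted p = 0.018). Tef probe 2 stayed between −0.05 and 0.06 in the male-female pairs, and Tef probe 3, well above background on 2 of 10 arrays for female and 4 of 10 for male pools, had 0.33 in pair 1 and −0.03 to 0.09 in the others.

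The marker genes of tissue layers differed within the same pairs, and their part in these ratios was not tested. The mean log2 ratio of 18 epithelial markers was −0.58, −0.47, −0.10 and −0.02 in the 4 pairs at 6 h, −0.004, 0.30 and 0.54 at 12 h, and between 0.09 and 0.52 in the male-female pairs. That of 8 mesenchymal markers was −0.23, 0.01, −0.57, −0.79 and −0.12 in the male-female pairs and between −0.06 and 0.19 in the DHT pairs. Between the sexes 3 of those 8 passed, all lower in males, against 6.24% of all probes in either direction. Of the epithelial markers 10 passed higher and 1 lower. That of 6 smooth muscle markers was −0.62 in male-female pair 4 and between −0.29 and 0.06 in all other pairs. That of 10 skeletal muscle markers was −0.42, −0.36, 0.21 and −0.006 at 6 h and −0.02, 0.42 and 0.84 at 12 h. Between the sexes it ran from −0.41 to 1.62, and 0 of the 10 markers passed. Of the 6 smooth muscle markers 1 passed between the sexes, lower in males. At 6 and 12 h none of the epithelial, mesenchymal, smooth muscle or skeletal muscle markers passed, against 1.73% and 0.276% of all probes. The log2 of the summed signal of the epithelial markers ranged from 14.4 to 14.7 in DHT and 14.7 to 15.1 in vehicle pools at 6 h, from 15.1 to 15.9 and 15.2 to 15.3 at 12 h, and from 15.6 to 16.1 in male and 15.4 to 15.7 in female pools. In pooled tissue, fewer cells of a type and less RNA per cell cannot be told apart.

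Levels were read channel by channel, as the mean of a pool's 2 arrays after scaling all arrays to a common distribution, and for Per1, Clock probe 1 and Cry1 probe 1 they differed more between sets than between partners. Without that scaling the median difference of all probes was 0.12 from 6 to 12 h (vehicle), −0.29 from 12 h to 17.5 dpc and −0.15 from 6 h to 17.5 dpc, against −0.01, 0.005 and −0.005 with it, so that differences of this size depend on the scaling. Per1 had log2 levels of 6.93, 7.02, 6.98 and 7.00 in the vehicle pools at 6 h, 7.86, 7.79 and 7.74 in those at 12 h, and 8.50, 8.62, 8.46, 8.51 and 8.53 in the female pools at 17.5 dpc. These 3 ranges do not overlap. The means were 6.98 ± 0.04 (SD, n = 4), 7.80 ± 0.06 (SD, n = 3) and 8.52 ± 0.06 (SD, n = 5). From 6 h vehicle to 17.5 dpc female pools the level was 2.91-fold higher, a difference of 1.54 on the log2 scale that 0.519% of all probes exceeded in size. DHT pools had 7.06 to 7.08 at 6 h and 7.87 to 8.01 at 12 h, and male pools had 8.29 to 8.65, a range that overlaps that of the females. With the scaling the order from low to high was vehicle at 6 h, DHT at 6 h, vehicle at 12 h, DHT at 12 h and then both sexes at 17.5 dpc. Without it the order of the means from 6 to 12 h to 17.5 dpc was kept (6.99, 8.02 and 8.31 in vehicle and female pools), with a step of 0.29 in place of 0.73 from 12 h to 17.5 dpc. Neighbours then overlapped: vehicle and DHT at 6 h (6.92 to 7.08 and 7.03 to 7.13), both at 12 h (7.96 to 8.09 and 8.08 to 8.23), and DHT at 12 h with the female pools (8.21 to 8.47) and the male pools (8.12 to 8.37).

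Clock probe 1 and Cry1 probe 1 had lower levels at 12 h than at 6 h. Clock probe 1 had 8.81, 8.69, 8.72 and 8.70 in vehicle pools at 6 h and 7.99, 7.90 and 8.02 at 12 h, a difference of −0.76 (1.69-fold lower). Cry1 probe 1 had 8.13, 8.00, 8.00 and 8.05 at 6 h and 7.38, 7.34 and 7.29 at 12 h, a difference of −0.70 (1.63-fold lower). In the DHT pools the same steps were −0.72 for Clock probe 1 and −0.57 for Cry1 probe 1. Female pools at 17.5 dpc had 8.03 to 8.27 for Clock probe 1 and 7.10 to 7.44 for Cry1 probe 1, which is below the 6 h pools in both cases. Clock probe 2 was lower at 12 h too (7.09 ± 0.05, n = 4, against 6.64 ± 0.13, n = 3, SD), but without scaling its ranges overlapped and the difference was −0.26 in place of −0.45. Clock probes 3 and 4 had overlapping ranges, with differences of −0.23 and 0.002. Cry1 probe 2, a dim probe, gave the opposite one, from 6.16 ± 0.07 (SD, n = 4) at 6 h to 6.38 ± 0.02 (SD, n = 3) at 12 h.

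Cry2 probe 1 was higher at 12 h than at 6 h, with 6.70, 6.72, 6.69 and 6.71 against 7.22, 7.15 and 7.28 in the vehicle pools. Female pools at 17.5 dpc overlapped those at 12 h (7.10 to 7.38), and without scaling they were wholly lower (a difference of −0.36). Cry2 probe 2, a dim probe, did not share the step: its vehicle ranges at 6 and 12 h overlapped, with a difference of −0.007. Arntl had 6.80 to 6.92, 6.91 to 7.03 and 6.94 to 7.11 in vehicle pools at 6 h, at 12 h and in female pools at 17.5 dpc, neighbouring ranges that overlap. In the DHT pools Arntl was wholly higher at 12 h than at 6 h, by 0.23. Without scaling the Arntl vehicle pools were wholly higher at 12 h than at 6 h (0.33 in place of 0.10), and the female pools wholly lower than the 12 h vehicle pools (−0.32 in place of 0.05). Dbp had 9.39 to 9.63 at 6 h and 9.37 to 9.52 at 12 h in vehicle pools, ranges that overlap, and 9.70 to 9.92 in female pools at 17.5 dpc. The higher Dbp level at 17.5 dpc was present only with the scaling between arrays: without it the means were 9.75, 9.60 and 9.52. Tef probe 1 had 8.46 to 8.59, 8.49 to 8.66 and, over 4 pools, 8.60 to 8.80. Its difference of 0.16 from 6 h to 17.5 dpc turned to −0.19 without scaling. With that scaling, Per2 probe 1, Per3 and Nr1d1 probe 1 each had overlapping ranges at 6 and 12 h, and they had higher ranges in female pools at 17.5 dpc only with the scaling between arrays. Per2 probe 2 was wholly lower at 12 h than at 6 h in vehicle pools, by −0.26, and its ranges overlapped without scaling. Nr1d1 probe 2, which was not well above background at 6 h, was wholly higher at 12 h, by 0.27 (0.43 without scaling).

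**Figure D2:**
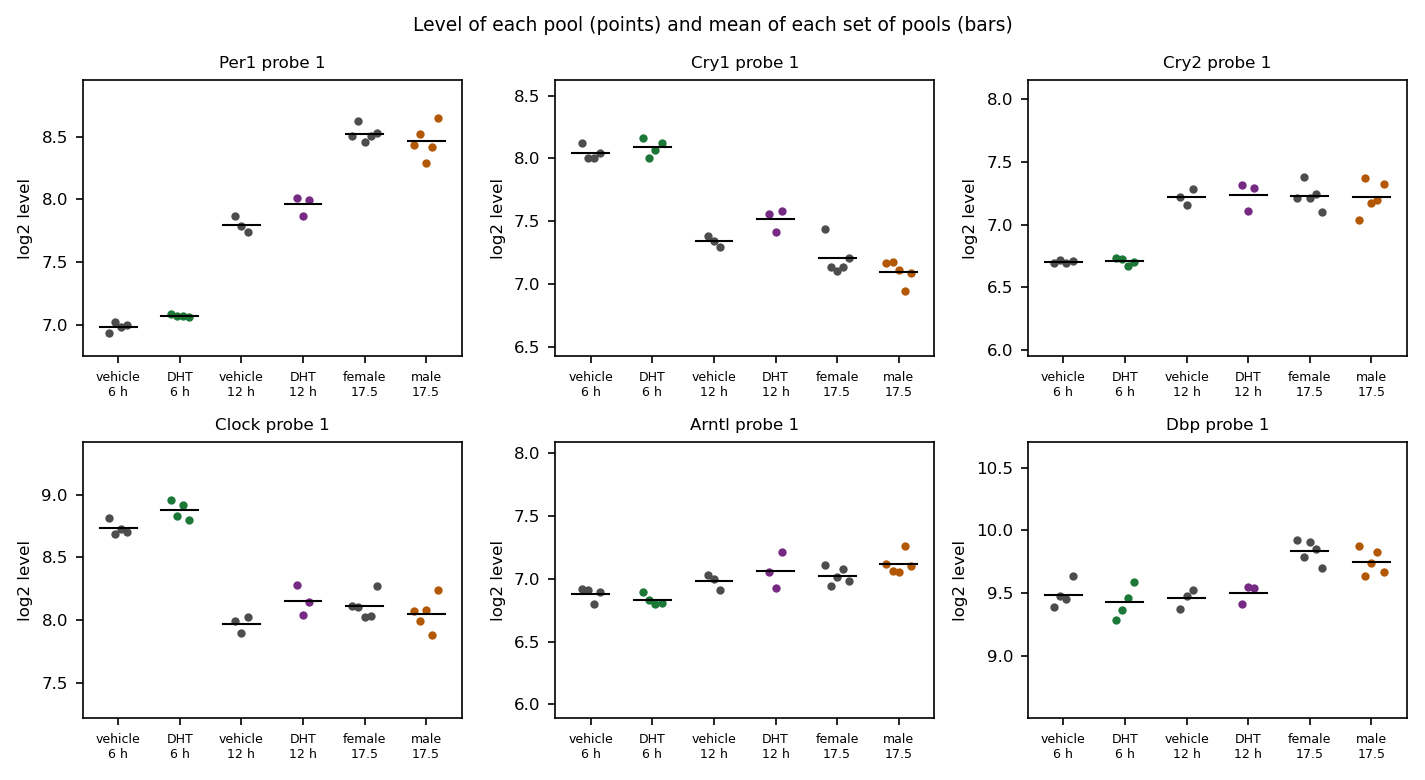
Log2 level of 6 probes in each pool (points), with the mean of each set of pools (bars), for vehicle and DHT pools at 6 and 12 h and female and male pools at 17.5 dpc. All panels span the same log2 range. Levels are those after scaling between arrays. Per1 goes from 6.98 through 7.80 to 8.52 in the vehicle and female pools (6.99, 8.02 and 8.31 without scaling), while Cry1 probe 1 and Clock probe 1 are highest in the pools taken at 6 h.

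Over all 19 probes, 4 had a vehicle range wholly higher at 12 h than at 6 h, against 22% of all probes, and 4 one wholly lower, against 24.1%, while 11 overlapped. The share with separate ranges was therefore not above that of probes in general. The directions given for Per1, Clock probe 1, Cry1 probe 1 and Cry2 probe 1 from 6 to 12 h were kept without scaling between arrays, with differences of 1.03, −0.73, −0.58 and 0.75. Each set of pools was hybridised on its own date and came from its own age, so that age, time of day and hybridisation cannot be told apart in these levels, and no test was made between sets. The log2 sum of the 10 skeletal muscle markers was 12.0 to 12.4, 11.4 to 11.9 and 13.5 to 14.5 in vehicle pools at 6 h, at 12 h and in female pools at 17.5 dpc, and its part in the level of Per1 was not tested.

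Of 20 further genes of the clock and its regulation, 19 were measured. None passed at 6 or 12 h, against 1.73% and 0.276% of all probes. At each time 3 had an unadjusted p under 0.05, against 13.7% and 15% of all probes. Between males and females, 2 passed, both higher in males, and 0 passed lower, against 6.24% of all probes in either direction. Nampt, the NAD salvage enzyme whose gene is a clock target, was higher by 0.40 (SE 0.04, n = 5, limma adjusted p = 3.78e-05). Usp2, a deubiquitinase that acts on clock proteins, was higher by 0.22 (SE 0.05, n = 5, limma adjusted p = 0.0109). Without male-female pair 2 the value for Usp2 was 0.18 and did not pass (adjusted p = 0.0518). Hlf, the third D-box activator, had 0.17 at 6 h and −0.16 between the sexes, and the difference of −0.33 passed (SE 0.08, limma adjusted p = 0.0314). That call for Hlf was kept when 6 h pair 4 or male-female pair 2 or 3 was left out and lost without any other pair of those sets (adjusted p of 0.0966, 0.117 and 0.0601 without 6 h pairs 1, 2 and 3, and 0.0579, 0.0722 and 0.0532 without male-female pairs 1, 4 and 5), and with 6 h pair 1 alone the adjusted p was 0.293. Nfil3, a repressor that binds D-boxes, had 0.19 at 6 h and 0.17 at 12 h (limma adjusted p = 0.117 and 0.228). Bhlhe40, a repressor at E-boxes, had −0.14 at 6 h and 0.16 at 12 h and did not pass. The median of the 19 genes was 0.04 at 6 h, 0.04 at 12 h and −0.01 between the sexes, against 0.005, 0.0007 and 0.0003 over all probes. Npas2 and Arntl2, relatives of Clock and Arntl, were well above background on at most 3 of 6 and 5 of 6 arrays of any set of pools.

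Of 8 genes known to be induced by steroid hormones, 7 were measured. Of these, 6 passed as higher in males than in females, also when any 1 pair was left out, against 6.24% of all probes in either direction. Sgk1, a kinase, was higher by 1.16 (SE 0.07, n = 5, limma adjusted p = 3.81e-07), and the transcription factor gene Klf15 by 0.91 (SE 0.08, n = 5, limma adjusted p = 8.73e-06). Errfi1, Fkbp5, Klf9 and Tsc22d3 were higher by 0.72, 0.71, 0.50 and 0.29, and Ddit4, named after its value was seen, had −0.40 and did not pass (limma adjusted p = 0.0746). At 12 h Klf15 alone passed, higher by 0.57 (SE 0.10, n = 3, limma adjusted p = 0.0488), and the other genes had 0.16 to 0.35. The call for Klf15 was lost without any 1 of the 3 pairs (adjusted p of 0.148, 0.108 and 0.148 without pairs 1, 2 and 3). At 6 h none passed, and Klf15 had the highest mean ratio, 0.37 (limma adjusted p = 0.0501), from 0.72, −0.03, 0.53 and 0.27 in pairs 1 to 4. In 6 h pair 1 alone Klf15 thus had 0.72, Fkbp5 0.24, Sgk1 0.22, Errfi1 0.12, Klf9 0.11, Tsc22d3 −0.07 and Ddit4 −0.25. The median of the 7 genes was 0.06, 0.30 and 0.71 in the 3 comparisons, and that of the clock gene probes 0.02, 0.04 and −0.02. The lists were chosen with earlier results of these data known, and no test set them against each other.

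**Figure D3:**
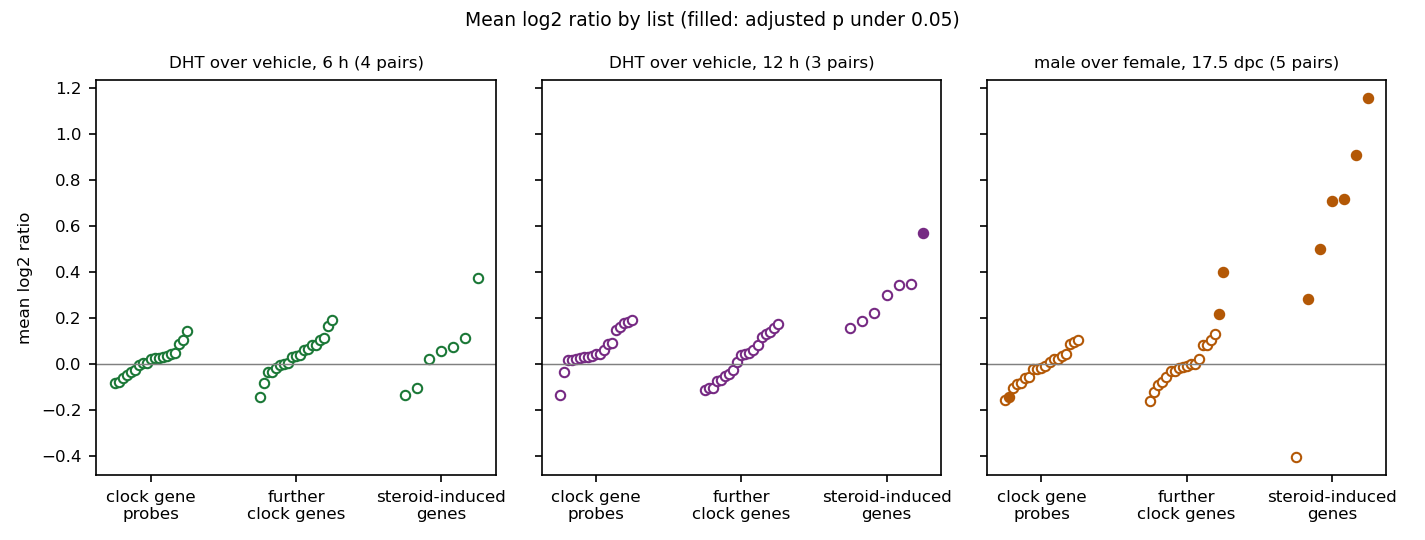
Mean log2 ratio (vertical axis) of the 19 clock gene probes, the 19 further clock genes and the 7 steroid-induced genes in each comparison, ordered within a list, with filled points for an adjusted p under 0.05. One clock gene probe, 2 further clock genes and 6 steroid-induced genes are filled for males over females, where the last reach 1.16.

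The genes whose ratios ran most like those of Dbp over the 12 pairs were Anks3 (Pearson r = 0.88), Epha4 (0.86), Cxcl14 (0.84), Flvcr2 (0.83) and Pik3r2 (0.82). For Arntl they were Pomk (0.91), Spink5 (0.91), C030006K11Rik (0.87) and Cd9 (0.87). They are among the highest of 16552 genes compared over 12 pairs that fall into 3 sets and share arrays, and the values are a description only.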

How the data were processed

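The authors' array files hold, per the file headers, the intensity of each spot, its local background and a log10 ratio of Cy5 over Cy3, as Agilent Feature Extraction 7.5.1 wrote them. The deposited series matrix holds a log2 ratio per probe and array; how it was normalised is not given in the sources used here, and it served as an alternative.

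Background correction (normexp, offset 50, on mean signal and median background) and loess within arrays were done with limma 3.58.1 under R 4.3.3, with data.table version 1.17.8 for reading; control spots had weight 0 and outlier spots were missing. Spots, then the 2 dye-swapped arrays of a pair, were averaged. Probes were kept with a channel well above background on at least 6 of 24 arrays. The 12 pairs were fitted in limma with 1 coefficient per comparison and contrasts between them; tests were two-sided, with Benjamini-Hochberg adjustment over all 35477 probes at 0.05, and the fit was tested on simulated data. Levels used Aquantile scaling. Number of arrays limits precision.

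All member probes were named; of the further clock genes those that passed or were among the 3 largest, of the steroid-induced those that passed or were among the 2 largest, and the 5 genes most like Dbp and Arntl; 2 items are not reported here. Members and lists were chosen with earlier results of these data known. Alternatives covered background, normalisation, the scanner's and matrix ratios, filters, separate fits, 1 probe per gene, a replicate block and each pair left out.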

Additional observations from a re-analysis of the deposited data

Results flagged for a closer look

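The log2 ratios of the clock gene probes held no pair far from the others: of 38 sets of 4 or 5 pairs checked, 0 had one. Of 76 sets of 4 or 5 pool levels, 7 had a pool that stood apart. Chance gives about 1 in 20 for independent sets. These sets share pools and arrays, so the 7 cannot be set against that rate. Cry2 probe 2 read 6.50 in the vehicle pool of 6 h pair 2 (the others 6.22 to 6.24) and 6.30 in the DHT pool of 6 h pair 1 (the others 6.18 to 6.20). Clock probe 2 read 7.01 in the vehicle pool of 6 h pair 4, against 7.11 to 7.12. At 17.5 dpc, Clock probe 3 read 6.07 in female pool 1 (the others 6.36 to 6.45), and Nr1d1 probe 2 read 6.16 in female pool 2 (the others 6.04 to 6.08). Tef probe 3 read 6.41 in female pool 1 and 6.74 in male pool 1, against 6.01 to 6.06 and 6.02 to 6.13 in the others.

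For 2 of 19 probes the male-female ratio differed from the 6 h DHT ratio by the test of the difference, against 5.77% of all probes. They were Per2 probe 2, by −0.25, and Clock probe 1, by −0.20. The call for Clock probe 1 was lost when any single pair at 6 h was left out. Most vehicle pools at 6 h carried Y-linked RNA, and the differences with 6 h pair 1 alone are given above.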

How the results depend on the processing

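The count of clock gene probes that passed between males and females, 1, was 2 with median centring, 0 with 1 probe per gene name, where Per2 probe 2 is not the brightest of its gene, and 0 with the replicate block, where its adjusted p was 0.054. It ranged from 0 to 2 when 1 pair was left out. The count for the male-female less the 12 h ratio, 0, was 1 with median centring and 0 to 1 when 1 pair was left out. That for the male-female less the 6 h ratio, 2, was 1 with median centring, the scanner's own ratios, 1 probe per gene name, offset 1 and the replicate block (Clock probe 1 was lost, at −0.21 and an adjusted p of 0.0689; Per2 probe 2 was kept, at 0.0354), was 0 with 6 h pair 1 only, and ranged from 1 to 2 when 1 pair was left out. The counts of 0 at 6 h, at 12 h and for 12 h less 6 h stayed 0 under every alternative run. Same-numbered pairs of different comparisons correlated at −0.06 to 0.27, so the numbers were not taken as pairing the pools, and the block changed no member's call beyond these 2.

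Without scaling between arrays, 7 probes had a wholly higher and 2 a wholly lower range for vehicle pools at 12 h over 6 h (4 and 4 with it). For DHT pools 9 were wholly higher (4 with it), while Per2 probe 2, Cry1 probe 1 and Clock probe 1 were wholly lower. With scaling 4 were wholly lower there. In female pools at 17.5 dpc 1 was higher and 9 lower than in vehicle at 12 h (8 and 0). Against vehicle at 6 h 2 were higher (8 higher and 4 lower with scaling), while Per2 probe 2, Cry1 probe 1 and every Clock probe were lower. The share over all probes is given here only for the scaled vehicle pools, 22% higher and 24.1% lower. Without scaling the median difference of all probes was itself 0.12 from 6 to 12 h in vehicle and 0.10 in DHT pools. It was −0.29 from 12 h and −0.15 from 6 h to 17.5 dpc. The other counts are thus not a result about the clock genes. Of the single ratios with a direction, 2 turned: Per2 probe 1 at 6 h was −0.0096 with the replicate block, and Cry1 probe 1 at 6 h was −0.017 with median centring. The 37 other ratios turned sign in 49 of 507 refits, and 0 of them passed. The added offset limits the ratios of dim probes.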
